A study of Mus musculus with 6 samples.

Results

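Cathepsins are the main proteases of the lysosome. The genes described here are 9 lysosomal proteases, Ctsb, Ctsc, Ctsd, Ctse, Ctsh, Ctsk, Ctsl, Ctsz and Lgmn, and Cst3, which encodes cystatin C, a secreted inhibitor of cysteine cathepsins. They were taken from a list of names and make up 10 of the 20656 genes in the table. All 10 were among the 15205 genes that passed the filter on low counts and entered the test. RNA-seq was done on 3 whole-lung samples (Lung_KP) and 3 samples of the KP cell line (CellLine_KP), and the series set out to compare chemokine expression between the line and the lungs bearing its tumours. Each Lung_KP sample pooled the lungs of 3 C57BL/6 mice from a separate experiment, given 100000 KP cells into the tail vein with harvest at day 28. The CellLine_KP samples were triplicate preparations labelled with the same strain, and the labels state neither the genotype of the line, nor how it was cultured, nor whether the triplicates were grown separately. P-values thus measure the spread between these samples, which among the cell line samples may be technical. No lung without tumour cells was analysed here, and whole lung holds resident, recruited and tumour cells together. Differences between lung and cell line are therefore differences between a tissue and a line, and in such bulk samples a change in the number of cells of a type and a change in the RNA per cell cannot be told apart.

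Most cathepsins are made as inactive proenzymes, carried to the lysosome by sorting receptors and activated there in the acid that the proton pump maintains. Cathepsins B, C, H, K, L and Z (cathepsin X) are cysteine proteases of the papain family, cathepsins D and E are aspartic proteases, and legumain is an asparaginyl endopeptidase that cuts several cathepsins into their mature chains. Macrophages and alveolar type 2 cells are rich in lysosomal proteases in the lung, where cathepsin H takes part in the processing of surfactant proteins.

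In whole lung Ctsk, Ctsh, Cst3, Lgmn, Ctsc and Ctsz were higher than in the cell line, Ctse and Ctsl were lower, and Ctsb and Ctsd did not pass the test. The count of 6 higher stands beside 31.3% of all tested genes called higher, and the count of 2 lower beside 17.5% called lower. The lung and cell line values did not overlap for 8 of the 10 genes, against 62.2% of all tested genes. The median log2 fold change was 1.319 over the 10 genes and 0.08 over all tested genes. Log2 fold changes are Lung_KP over CellLine_KP from edgeR's quasi-likelihood test, with p-values adjusted over all tested genes, and the threshold was 0.05. Standard errors (SE) were derived from that test, as the absolute log2 fold change divided by the square root of its F statistic. Levels are CPM, counts divided by the TMM-scaled library size and set to a common total, and are given for each sample.

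**Figure D1:**
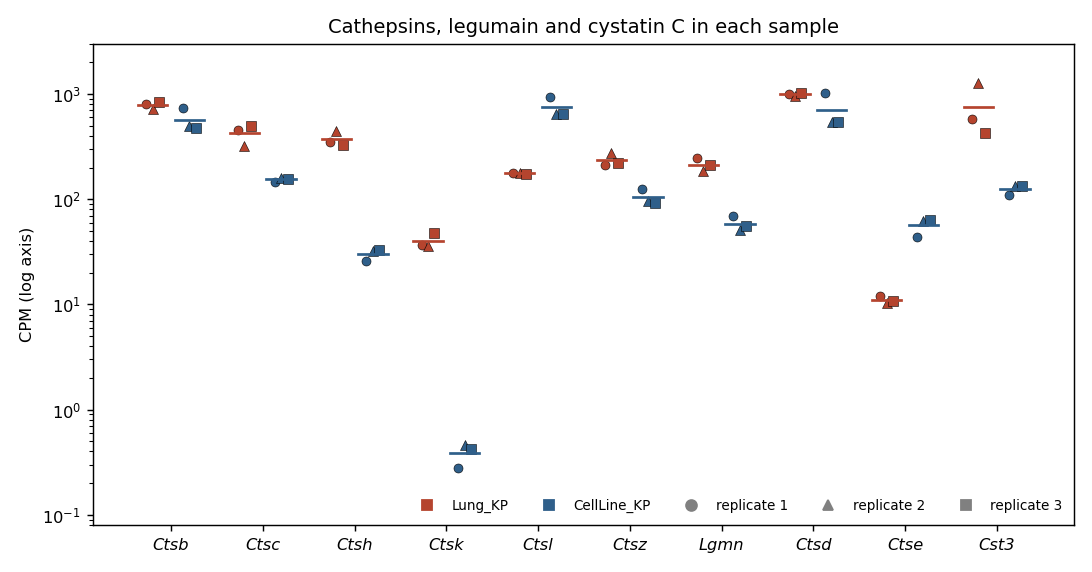
CPM on a log axis for each of the 10 genes, with Lung_KP in red left of CellLine_KP in blue, 1 point per sample and a bar at the mean of the 3 samples. Ctsk stands between 36.0 and 48.3 CPM in lung and at or below 0.461 CPM in the cell line, while the Ctsl and Ctse points lie higher in the cell line and those of Ctsb and Ctsd overlap.

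Promoter sequence was available for 7 of the 10 genes as RefSeq windows of 250 bases before a transcription start (build GRCm38.p6), and stretches are printed for 4 genes. Ctsk is shown in full as the gene with the largest difference, and Ctsc as the only one of the 8 windows with the PU.1-type letters. Ctsd and Ctsl, the genes with the highest level per length among the proteases of the cell line, are shown as 30 bases around the letters that were found. Letters were searched on both strands in these windows and in the 50 bases after each start. The 3 motifs were CACGTG (the E-box), TCACGTGA and GAGGAAGT. TCACGTGA contains CACGTG and is the core of the element bound by the lysosomal regulator TFEB. GAGGAAGT is of the type bound by the myeloid factor PU.1. Capitals mark a match. Positions count back from the RefSeq start, with -1 the base before it.
Ctsk: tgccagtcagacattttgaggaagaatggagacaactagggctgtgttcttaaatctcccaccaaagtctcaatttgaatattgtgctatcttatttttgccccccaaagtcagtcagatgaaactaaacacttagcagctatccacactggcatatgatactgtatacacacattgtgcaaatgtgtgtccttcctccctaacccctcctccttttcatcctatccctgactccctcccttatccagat
Ctsc: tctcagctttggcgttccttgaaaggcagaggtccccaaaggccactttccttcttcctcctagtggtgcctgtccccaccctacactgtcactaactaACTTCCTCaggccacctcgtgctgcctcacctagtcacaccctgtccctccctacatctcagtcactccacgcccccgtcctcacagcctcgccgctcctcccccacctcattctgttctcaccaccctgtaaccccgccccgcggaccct
Ctsd: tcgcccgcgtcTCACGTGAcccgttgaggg
Ctsl: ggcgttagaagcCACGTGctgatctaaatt

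The Ctsk window (chr3:95498960-95499209, plus strand) held none of the searched letters, had a GC content of 43.2% and held 0 CG pairs, and the Ctsk-201 transcript starts 46 bases past its end. The Ctsc window (chr7:88277835-88278084, plus strand) held GAGGAAGT on the opposite strand at -151 to -144, so that it reads ACTTCCTC as printed, with a GC content of 60.4% and 9 CG pairs. The Ctsd stretch (chr7:142387908-142387937, minus strand) lies at -110 to -81 and holds TCACGTGA at -99 to -92, and CACGTG occurs again at -245 to -240. It lies inside an annotated exon of Ctsd-202, the transcript that held nearly all Ctsd counts and whose start lies 211 bases upstream of the RefSeq start. Its window had a GC content of 67.2% and 27 CG pairs. The Ctsl stretch (chr13:64370739-64370768, minus strand) lies at -248 to -219 and holds CACGTG at -236 to -231, and the Ctsl-201 transcript starts 214 bases downstream of the RefSeq start. Among 32851 mouse promoter windows, searched with the same 50 bases after the start, 7.15% held CACGTG, 0.974% held TCACGTGA and 3.2% held GAGGAAGT. Of the other windows, the downstream one of 2 for Lgmn held CACGTG at -49 to -44, and those of Ctsz, Cst3 and the upstream start of Lgmn held none of the 3. A match describes letters in these windows and was not tested as a binding site.

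The collagen- and elastin-degrading endopeptidase cathepsin K, best known from osteoclasts, gave the largest difference of the 10 genes. Ctsk stood at 36.9, 36.0 and 48.3 CPM in Lung_KP replicates 1, 2 and 3, against 0.280, 0.461 and 0.421 CPM in CellLine_KP replicates 1, 2 and 3. The cell line values rest on 6, 8 and 8 counts, above the 3 counts that a count of 0 allows, which came to between 0.131 and 0.169 CPM depending on the sample. The groups did not overlap, and the log2 fold change was 6.70 (SE 0.35, adjusted p = 1.5e-05), a 104-fold difference. Ctsk has a single transcript in the table. The 8 osteoclast markers had summed levels of 142 to 179 CPM in lung against 38.4 to 51.4 CPM in the cell line. Of these, 6 were tested and 4 were higher in lung, against 31.3% of all tested genes called higher. The 4 were Acp5 at 50.9 to 82.1 CPM in lung against 4.16 to 7.28 CPM in the cell line, Mmp9 at 15.9 to 48.7 against 0.790 to 1.04 CPM, and the cell fusion genes Dcstamp at 1.97 to 3.04 against 0.0527 to 0.0934 CPM and Ocstamp at 1.04 to 1.37 against 0.0527 to 0.173 CPM. Nfatc1 and Tnfrsf11a were tested and did not pass (adjusted p = 0.0620 and 0.28). Nfatc1 stood at 35.0 to 60.3 CPM in lung against 22.6 to 34.8 CPM in the cell line, where it held most of the sum. Tnfrsf11a stood at 5.31 to 15.9 against 7.28 to 8.06 CPM. The untested Calcr and Oscar stood at 0.133 to 0.364 CPM and at 0 to 0.0885 CPM in lung. All 10 fibroblast markers were higher in lung, with sums of 1918 to 3802 CPM against 20.3 to 29.5 CPM in the cell line. Of 14 macrophage markers 12 were higher, with sums of 7120 to 9613 CPM against 209.7 to 320.3 CPM. The part of any of these cell types in the Ctsk level was not tested.

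Cathepsin H, an aminopeptidase with a role in surfactant protein processing, gave the second largest difference. Ctsh stood at 353, 449.9 and 329 CPM in lung replicates 1, 2 and 3, against 26.0, 32.0 and 32.9 CPM in cell line replicates 1, 2 and 3. The groups were far apart, with a log2 fold change of 3.64 (SE 0.28, adjusted p = 3.9e-05). Napsa, which encodes napsin A, another surfactant-processing protease of alveolar type 2 cells, stood at 359, 425 and 419 CPM in lung against 5.74, 6.62 and 2.58 CPM in the cell line. Its log2 fold change was 6.33 (SE 0.44, adjusted p = 3.4e-05). The 9 alveolar type 2 markers were all higher in lung, with sums between 15373 and 21821 CPM against 148 to 150.4 CPM in the cell line, where Sftpa1, Sftpd and Slc34a2 had 0 counts. Abca3 at 79.7 to 86.6 CPM and Etv5 at 62.0 to 68.3 CPM made up nearly all of the cell line sums. What share of the Ctsh level came from alveolar type 2 cells was not tested.

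Cathepsin C, the dipeptidyl peptidase that activates the granule proteases of neutrophils and cytotoxic lymphocytes, was also higher in lung. Its levels were 460.0, 324 and 498 CPM in lung replicates 1, 2 and 3, and 147, 161 and 157 CPM in cell line replicates 1, 2 and 3. Lung replicate 2 was the lowest of the lung samples and still above every cell line sample, and Ctsc had a log2 fold change of 1.47 (SE 0.27, adjusted p = 0.0024). All 8 tested neutrophil markers and all 12 T cell markers were higher in lung, with neutrophil sums of 184 to 338 CPM against 3.00 to 5.46 CPM and T cell sums of 238 to 295 CPM against 18.0 to 30.2 CPM. Their part in the Ctsc level was not tested.

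Cathepsin Z, a carboxypeptidase, had the smallest difference among the genes that passed. Ctsz stood at 209.8, 278 and 219.9 CPM in lung replicates 1, 2 and 3, against 126, 96.1 and 91.3 CPM in cell line replicates 1, 2 and 3. The groups did not overlap, and the log2 fold change was 1.17 (SE 0.26, adjusted p = 0.0060). Without cell line replicate 2 the call was lost, at a log2 fold change of 1.04 and an adjusted p of 0.0504. Without cell line replicate 3 it was barely kept, at 1.03 and an adjusted p of 0.0482.

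Cathepsin L, a potent endopeptidase known for its secretion by many transformed cells, went the other way. Ctsl stood at 179, 179 and 175 CPM in lung replicates 1, 2 and 3, against 943, 652 and 652 CPM in cell line replicates 1, 2 and 3. The lung samples were within 4 CPM of each other, every cell line sample was higher, and the log2 fold change was -2.08 (SE 0.28, adjusted p = 5.2e-04), a 4.21-fold higher level in the cell line. Cathepsin B, an endopeptidase that also acts as a carboxydipeptidase, did not pass the test. Ctsb stood at 803, 719 and 840.0 CPM in lung against 742, 494 and 474 CPM in the cell line, with cell line replicate 1 inside the lung range. Its log2 fold change was 0.47 (SE 0.29, adjusted p = 0.22), and 0.69 (adjusted p = 0.0522) without cell line replicate 1.

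Legumain, the asparaginyl endopeptidase, was higher in lung. Lgmn stood at 246, 186 and 211 CPM in lung replicates 1, 2 and 3, against 68.7, 51.4 and 55.2 CPM in cell line replicates 1, 2 and 3. The groups were well separated, with a log2 fold change of 1.87 (SE 0.25, adjusted p = 4.9e-04).

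The aspartic proteases differed from each other. Cathepsin D, the main aspartic protease of the lysosome, stood at 996, 957 and 1027 CPM in lung replicates 1, 2 and 3, against 1016, 549 and 548 CPM in cell line replicates 1, 2 and 3. Cell line replicate 1 lay among the lung samples and the other cell line samples lay well below them. Over all samples Ctsd had a log2 fold change of 0.50 (SE 0.33, adjusted p = 0.25). Without cell line replicate 1 it was 0.85 and passed, with an adjusted p of 0.0256. Cathepsin E, an endosomal aspartic protease found in immune cells and in some epithelial tumours, was lower in lung at 12.1, 10.4 and 10.8 CPM, against 43.9, 62.4 and 64.2 CPM in the cell line. The groups did not overlap, and the log2 fold change of Ctse was -2.36 (SE 0.26, adjusted p = 1.8e-04).

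Cystatin C, the inhibitor, had the widest spread of the 10 genes within lung. Cst3 stood at 581, 1278 and 428 CPM in lung replicates 1, 2 and 3, against 109, 134 and 133 CPM in cell line replicates 1, 2 and 3. All lung samples were above all cell line samples, but lung replicate 2 was 2.53 times the mean of the other lung samples. The log2 fold change was 2.60 (SE 0.44, adjusted p = 0.0017), and 1.95 (SE 0.20) without lung replicate 2. Lung replicate 2 differed from the other lung samples by transcript length: the median log2 difference was 0.77 in the shortest quartile of genes and -0.99 in the longest. Cst3 has a mean transcript length of 859 bases, in the shortest quartile, and its own difference was 1.36. The part of the length trend in the Cst3 value was not tested. Of the other short genes, Ctsh and Ctsz were higher in that sample by 0.40 and 0.37 on the log2 scale, while Ctsk was lower at -0.23.

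**Figure D2:**
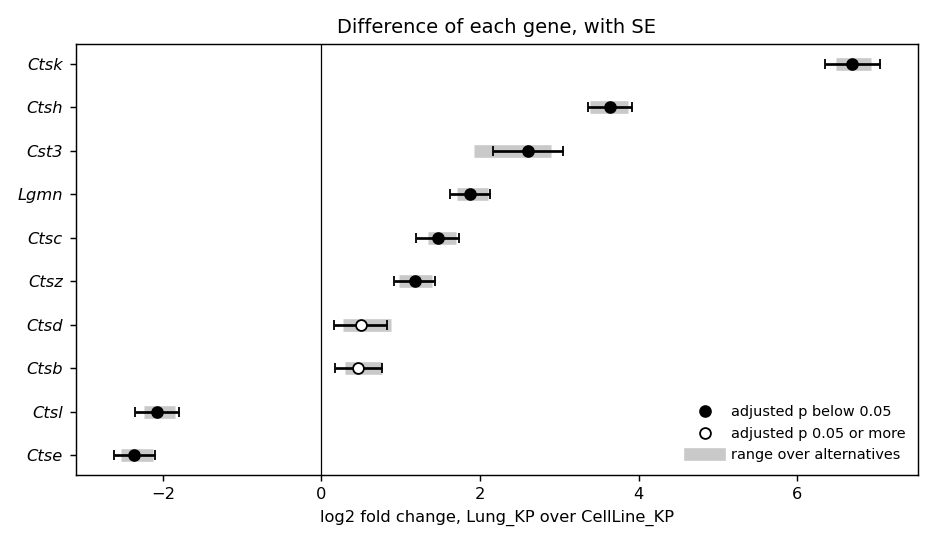
Log2 fold change of Lung_KP over CellLine_KP for each gene, with bars of 1 SE and grey bands for the lowest and highest value over the alternatives; filled points passed an adjusted p of 0.05. Ctsk, Ctsh, Cst3, Lgmn, Ctsc and Ctsz lie right of 0, Ctsl and Ctse lie left of it, and Ctsb and Ctsd are open; the band of Cst3 reaches down to 1.92.

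To compare levels between genes, counts were divided by transcript length and scaled to a common total in each sample (TPM). The TPM of a gene sums all its annotated transcripts, coding or not. Short ones such as Ctsb-202, a retained intron of 801 bases beside the 4743 bases of Ctsb-201, weigh more in TPM than in counts. Levels of the coding transcripts alone were not compared. Per length, Cst3 was the highest in lung at 1519 ± 561 TPM, followed by Ctsd at 872 ± 195, Ctsh at 539 ± 49.0, Ctsb at 466 ± 140.4, Ctsc at 321 ± 122.5, Ctsz at 298 ± 21.6, Lgmn at 210.3 ± 62.4, Ctsl at 182 ± 43.7, Ctsk at 50.3 ± 16.4 and Ctse at 9.73 ± 2.42 TPM (SD, n = 3). In that order the ranges of Ctsh and Ctsb, of Ctsb and Ctsc, of Ctsc and Ctsz, and of Lgmn and Ctsl overlapped. The cell line had another order: Ctsl came first at 799 ± 186 TPM, then Ctsd at 590.1 ± 231, Ctsb at 358 ± 92.3, Cst3 at 259 ± 26.9, Ctsz at 129 ± 24.5, Ctsc at 110.1 ± 5.82, Lgmn at 53.8 ± 8.003, Ctse at 47.5 ± 9.07, Ctsh at 46.5 ± 7.24 and Ctsk at 0.455 ± 0.109 TPM. There the ranges of Ctsl and Ctsd, Ctsd and Ctsb, Ctsz and Ctsc, Lgmn and Ctse, and Ctse and Ctsh overlapped. Ctsl thus ranked 8 of 10 in lung and 1 of 10 in the cell line, and Ctsh ranked 3 in lung and 9 in the cell line.

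The make-up of the protease transcripts, coding and other together, differed between the groups, while the ranges of their summed TPM overlapped. The 9 proteases together came to 2948 ± 644 TPM in lung and 2134 ± 519 TPM in the cell line. The overlap was lung replicate 2, at 2208 TPM, below cell line replicate 1, at 2733 TPM. Lung replicates 1 and 3 had 3256 and 3381 TPM, and cell line replicates 2 and 3 had 1849.5 and 1819 TPM. The part of the length trend of lung replicate 2 in its TPM was not tested. In CPM the 10 genes, Cst3 included, summed to 3787 to 4418 in lung against 2206 to 3222 in the cell line, without overlap. Ctsl made up 6.16 ± 0.302% of that sum in lung, against 37.5 ± 0.446% in the cell line (SD, n = 3). Ctsh made up 18.7 ± 2.79% in lung against 2.31 ± 0.790% in the cell line. Ctsc, Ctsz and Lgmn made up 10.6 ± 2.09%, 10.4 ± 1.89% and 7.05 ± 0.827% in lung, against 5.38 ± 1.38%, 6.10 ± 0.326% and 2.56 ± 0.251% in the cell line. Ctsd held 29.5 ± 0.389% in lung and 27.0 ± 3.75% in the cell line, and Ctsb held 15.6 ± 1.55% in lung and 16.7 ± 0.594% in the cell line, with overlapping ranges for both genes. The ratio of Ctsl to Ctsb was 0.399, 0.434 and 0.361 in lung replicates 1, 2 and 3, against 2.19, 2.18 and 2.36 in cell line replicates 1, 2 and 3. In the cell line this ratio stayed within a narrow range although both genes were highest in replicate 1. The 6 cysteine cathepsins summed to 1.48, 0.661 and 2.04 times the Cst3 level in lung, and to 7.77, 4.66 and 4.62 times in the cell line, so the Cst3 level was higher relative to them in every lung sample.

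**Figure D3:**
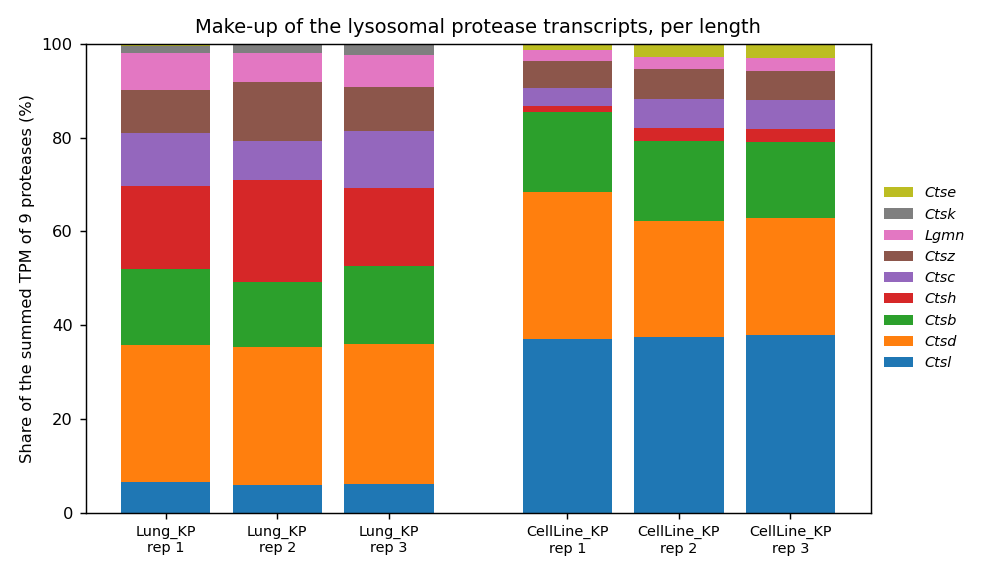
Share of each protease in the summed TPM of the 9 proteases, 1 stacked bar per sample, with Lung_KP left of CellLine_KP. The blue Ctsl segment covers 5.98 to 6.51% of the lung bars and 37.1 to 38.0% of the cell line bars, and the red Ctsh segment covers 16.6 to 21.9% of the lung bars and 1.41 to 2.89% of the cell line bars.

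The table gives estimated counts per transcript, so the transcripts behind each gene can be compared. Ctse, Ctsk and Ctsz have 1 transcript each, and the leading transcripts of Ctsd and Cst3 held at least 96.7% of their gene's counts in every sample. By the mean share of counts over the samples of a group, Ctsh was the gene of the 10 whose leading transcript differed between the groups. The shares given here are not divided by transcript length. Ctsh-202 has 1238 bases against 1617 for Ctsh-201, so its share per length is larger than by counts. With counts divided by annotated length, Ctsh-202 led in every lung and every cell line sample, so the difference in leading transcript did not hold per length. The coding transcript Ctsh-201 held 44.6, 50.6 and 41.8% of the Ctsh counts in lung replicates 1, 2 and 3, against 31.2, 37.2 and 21.4% in cell line replicates 1, 2 and 3. Ctsh-202, which is annotated as a target of nonsense-mediated decay, held 44.5, 43.8 and 45.1% in lung against 56.3, 45.9 and 58.4% in the cell line. By counts in single lung samples, Ctsh-201 led in replicate 2, Ctsh-202 led in replicate 3 and they were nearly equal in replicate 1. The share of Ctsh-201 was higher in all 3 lung samples, with a two-sided exact permutation p of 0.1, the smallest that 3 samples against 3 can give, so the design cannot reach 0.05. The cell line shares rest on 555 to 624 counts of Ctsh per sample. Lgmn-201 held between 48.2 and 63.1% of the Lgmn counts in lung against 54.1 to 82.7% in the cell line, and these ranges overlapped. In lung replicate 2 Lgmn-202 led with 51.8%. Ctsb-202, annotated as a retained intron, held 11.02, 8.08 and 10.4% of the Ctsb counts in lung against 13.2, 14.6 and 13.2% in the cell line, lower in each lung sample. Shares between transcripts that share exons are estimates and carry an error that the table does not give.

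**Figure D4:**
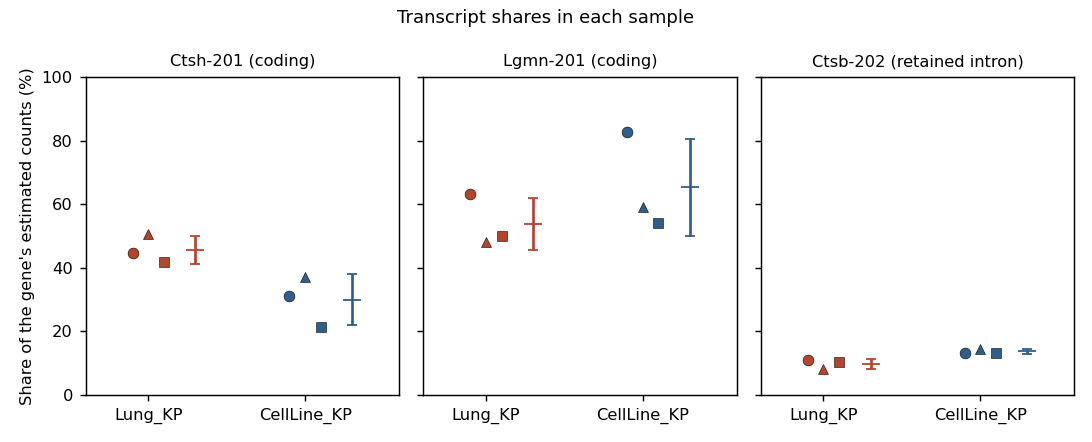
Share of the gene's estimated counts held by Ctsh-201, Lgmn-201 and Ctsb-202, with Lung_KP left of CellLine_KP, 1 point per sample and mean ± SD beside the points. The lung points lie above the cell line points for Ctsh-201 (41.8 to 50.6% against 21.4 to 37.2%), below them for Ctsb-202, and overlap for Lgmn-201.

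The cell line samples differed among themselves in a way that touches several of these genes. The correlation of log2 CPM over the tested genes was 0.991 for cell line replicates 2 and 3, whereas for replicate 1 it was 0.965 with replicate 2 and 0.964 with replicate 3; genes are not independent replicates. In replicate 1 Ctsd was 1.85 times and Ctsb 1.53 times the mean of replicates 2 and 3, and Ctsl was 1.45 times that mean, while Ctse stood at 0.694 times it. Of the 9 genes with a mean of 5 CPM or more in the cell line, 2 (Ctsd and Ctsb) were at least 1.5-fold above both other samples, against 14.4% of 10226 such genes, and none was as far below, against 16.8%. Genes for other parts of the lysosome stood higher in replicate 1 as well: 21 of 35 lysosome membrane and hydrolase genes, 13 of 17 proton pump genes, 3 of 4 other lysosomal peptidases and 4 of 13 sorting genes were past that fold. The median ratio was 1.91 for the membrane and hydrolase genes, 1.86 for the pump and 1.29 for the 9 genes. Hexa, a subunit of beta-hexosaminidase picked after its values were seen, had 231 CPM in replicate 1, while replicates 2 and 3 had 42.0 and 38.9 CPM. Keratin 8 (Krt8) went the other way, with 997 CPM in replicate 1, 3429 CPM in replicate 2 and 3454 CPM in replicate 3. The fold and level limits were chosen after the data were seen, the comparison is of 1 sample with 2 others of its group, and no test was made.

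**Figure D5:**
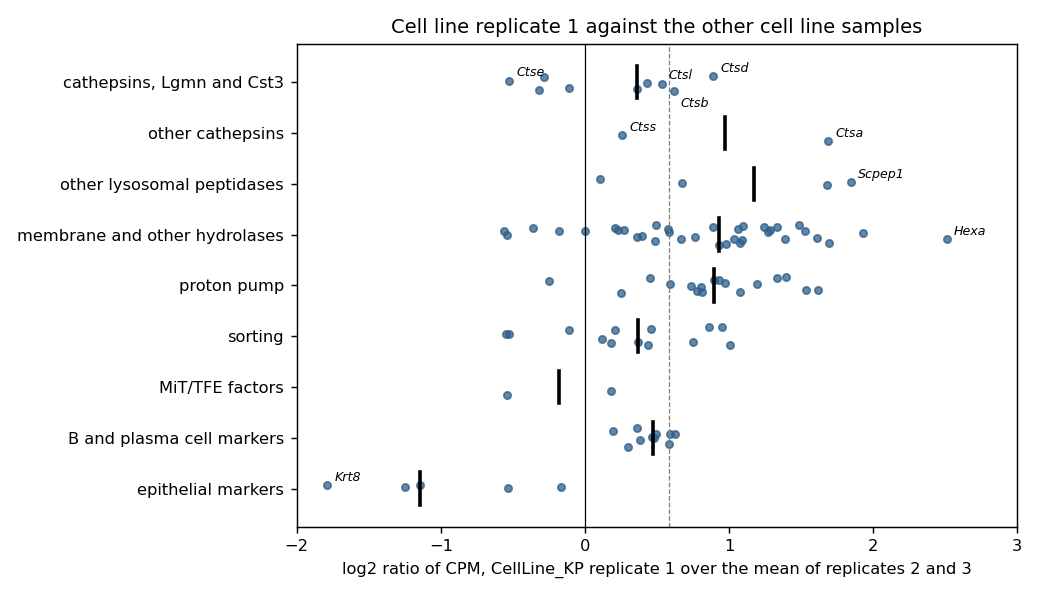
Log2 ratio of CPM in CellLine_KP replicate 1 over the mean of replicates 2 and 3, 1 point per gene with 5 CPM or more in the cell line, by gene list; black bars are medians, the solid line is 0 and the dashed line marks 1.5-fold. The proton pump and the membrane and hydrolase genes lie mostly right of the dashed line (medians 0.90 and 0.93), while the epithelial markers lie left of 0.

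Beyond the 10 genes, the other cathepsins were mostly higher in lung, against 31.3% of all tested genes called higher. Of 5 tested, Ctss, Ctso, Ctsf and Ctsw were higher and Ctsa did not pass (log2 fold change -0.17, adjusted p = 0.79), with a median log2 fold change of 3.72. Cathepsin S, the protease that trims the invariant chain in antigen-presenting cells, stood at 539.7, 558 and 435 CPM in lung replicates 1, 2 and 3, against 10.5, 11.5 and 6.01 CPM in cell line replicates 1, 2 and 3 (log2 fold change 5.78, SE 0.38, adjusted p = 2.9e-05). Of 6 other lysosomal peptidases, Napsa, Cpq and Prcp were higher and the serine carboxypeptidase gene Scpep1 was lower, at 105, 99.4 and 108 CPM in lung against 569, 156 and 160.4 CPM in the cell line. The Scpep1 log2 fold change was -1.50 (adjusted p = 0.0404), and the call was lost when lung replicate 1, 2 or 3 was left out, and with limma-voom. Of 16 other cystatins, 12 were in the table and 5 were tested; Cst7, Cst8, Fetub and Ahsg were higher, all below 5 CPM in every lung sample, and the cytosolic inhibitor cystatin B (Cstb) did not pass, at 72.2, 166 and 48.9 CPM in lung against 135, 77.1 and 77.5 CPM in the cell line.

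Genes that deliver and activate cathepsins showed differences in both directions. Of 13 sorting genes 3 were higher in lung, 3 were lower and 7 did not pass, with a median log2 fold change of 0.08. Across all tested genes 31.3% were called higher and 17.5% lower, and the 18 proton pump genes stood below both shares. The sorting receptor sortilin (Sort1) was higher by 4.53 on the log2 scale (adjusted p = 2.4e-04), the glucocerebrosidase receptor Scarb2 by 1.01 (adjusted p = 0.0310) and the phosphotransferase subunit Gnptg by 1.12 (adjusted p = 0.0231). The retromer subunits Vps35 and Vps26a and the adaptor Gga2 were lower, at log2 fold changes of -1.47, -1.05 and -0.95. Without cell line replicate 2, and likewise without replicate 3, 1 sorting gene was higher. Of 18 proton pump genes, Tcirg1 (log2 fold change 1.57, adjusted p = 9.8e-04) and Atp6v0d2 (5.89, adjusted p = 5.8e-04) were higher, Atp6v1c1 was lower (-1.04, adjusted p = 0.0187) and 15 did not pass. Both higher genes encode pump subunits known from osteoclasts and macrophages. The Atp6v1c1 call was lost without lung replicate 1 or 3, and 2 pump genes were lower without cell line replicate 2 or 3.

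Among 35 lysosome membrane and other hydrolase genes 7 were higher, 1 was lower and 27 did not pass, with a median log2 fold change of 0.03. Both counts were below the shares of all tested genes, 31.3% called higher and 17.5% called lower. The cholesterol-binding protein gene Npc2 stood at 1053, 1502 and 1133 CPM in lung against 476, 234 and 230.0 CPM in the cell line, for a log2 fold change of 1.97 (adjusted p = 0.0034). The acid phosphatase gene Acp5 was higher by 3.36 (adjusted p = 1.3e-04). Gm2a, Fuca1, Lipa, Ppt1 and Smpd1 were the other higher genes, and the tetraspanin Cd63 was lower (-0.89, adjusted p = 0.0449). The count of higher genes was 4 without lung replicate 1, without cell line replicate 2 or without cell line replicate 3. The count of lower genes was 2 without lung replicate 2 or cell line replicate 2, and the Cd63 call was lost without lung replicate 1 or cell line replicate 1. There were 22 higher and 4 lower when lung replicate 2 and cell line replicate 1 were both left out, a fit in which the spread is that of the most similar samples of each group, so its counts are not comparable with the others. Of the MiT/TFE factors, which include the lysosomal regulator TFEB, 3 of 4 were higher: Tfeb by 1.65 (adjusted p = 0.0014), Tfec by 5.65 (adjusted p = 4.5e-04) and Mitf by 3.09 (adjusted p = 0.0011). Tfe3 did not pass (-0.58, adjusted p = 0.0715) and was the most abundant of the 4 in the cell line by CPM, at 91.7, 79.4 and 82.7 CPM. It was called lower without lung replicate 2.

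Most macrophage and alveolar macrophage markers were also higher in lung, against 31.3% of all tested genes called higher. Of 14 macrophage markers 12 were higher, with sums of 7120, 9613 and 7604 CPM in lung replicates 1, 2 and 3, against 209.7, 320.3 and 291 CPM in cell line replicates 1, 2 and 3. Lyz2 alone made up 5921, 7947 and 6415 CPM of the lung sums. Mertk and Mrc1 did not pass. Mrc1 stood at 119, 47.5 and 127 CPM in lung and made up 31.3, 163 and 173 CPM of the cell line sums. Of 10 alveolar macrophage markers 9 were higher and Pparg was lower, with sums of 918 to 1201 CPM against 49.9 to 69.3 CPM. Pparg alone stood at 18.5, 25.5 and 15.9 CPM in lung and made up 43.2, 62.4 and 65.1 CPM of the cell line sums, while Ear1 and Car4 had 0 counts in the cell line. Of 8 epithelial markers 3 were higher and 1 lower. The cell line libraries also held lymphocyte transcripts: the 12 B and plasma cell markers summed to 742, 1608 and 916 CPM in lung and to 449, 420.0 and 244 CPM in the cell line, Ighm among them at 205, 187 and 109 CPM. In cell line replicate 3 the median B and plasma cell marker stood at 0.572 times its level in replicate 2, Ctss at 0.524 times and Napsa at 0.390 times. The 10 genes stood between 0.915 and 1.07 times. The 0.915 is that of Ctsk and rests on 8 counts in each of the 2 samples, too few to tell such ratios apart. The part of macrophages, lymphocytes or epithelial cells in any level was not tested.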

How the data were processed

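The submitters' processing notes name Salmon 1.4.0, with FastQC 0.11.9, DESeq2 1.32.0 and the build GRCm39; no annotation release is named there. The authors deposited estimated counts for each transcript, without lengths and not normalized. Per the labels' protocols, a stranded mRNA library kit was used, and amplification by a Nugen protocol is also mentioned. Of 76776 transcripts, 76489 (99.63%) matched GENCODE M21 (GRCm38) by identifier and were summed to 20656 symbols; the other 287 held 0.123% to 0.45% of a sample's counts. Totals were 17786758 to 22862396 per sample, and floors cover counting error only. Gene sums were rounded and tested in edgeR 4.0.16 (R 4.3.3; TMM, filterByExpr by group, robust quasi-likelihood fit, Benjamini-Hochberg adjustment over 15205 genes), a step tested on simulated data. The model held the group only. TPM used annotated, not effective, lengths. Of these genes 4755 were higher and 2663 lower in lung; library size alone shifted the median log2 fold change by 0.23 and made 75.1% of calls higher, against 64.1%. Alternatives were other scaling, filters, tests (DESeq2 1.42.0, limma-voom from limma 3.58.1), a replicate block, a length offset and samples left out. The 10 genes and all lists were chosen with earlier results of these data known. Named from each other list were the called gene with the highest lung level per length, the one with the largest change at 1 CPM or more, and the largest change of the other direction; other list genes were named after their values were seen. From each marker list the gene with the highest level was the rule's choice. RefSeq promoters came from GRCm38.p6.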

Additional observations from a re-analysis of the deposited data

How the results depend on the processing

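Over 149 alternative values for the 10 genes, 145 kept their direction and side of the threshold, 1 lost its call, 3 gained one and 0 reversed. The lost call was Ctsz (1.04, adjusted p = 0.0504) without cell line replicate 2. Without cell line replicate 3 it was barely kept (1.03, adjusted p = 0.0482). Calls gained were Ctsd (0.85) without cell line replicate 1, and Ctsb (0.76) and Ctsd (0.88) with that sample and lung replicate 2 both left out. Ctsk dropped out under 10 counts in all samples. Library size alone gave 1727 genes lower in lung, and 1 sorting gene and 0 peptidase, pump or hydrolase genes lower. Requiring 10 counts in all 6 samples gave 2553 higher and 1700 lower, with 0 cystatins and 1 pump gene higher and 0 peptidase, pump or hydrolase genes lower. Lower hydrolase genes numbered 2 with DESeq2 size factors, limma-voom or the replicate block, 3 with no filter or a length offset, and 4 with the DESeq2 test, against 1. Lower pump genes numbered 2 with no filter, the DESeq2 test or the block. The DESeq2 test called 1 MiT/TFE gene lower, and limma-voom 0 peptidases. With both libraries left out, 5421 genes were lower; 5 peptidase, 5 sorting, 5 pump and 22 hydrolase genes were higher, and 5 sorting, 3 pump, 4 hydrolase and 1 MiT/TFE genes were lower. Leaving out 1 sample gave 4 to 10 higher and 0 to 2 lower hydrolase genes, 0 to 2 lower pump genes, 0 to 1 lower peptidases, 1 to 4 higher sorting genes and 0 to 1 lower MiT/TFE genes; the cause was not tested. Replicate numbers did not pair the samples (correlations of deviations -0.0423, 0.0822 and -0.0834), and with the replicate block 4631 genes were higher and 2528 lower, Cst3 stood at 2.45, and the 10 genes' calls did not change. Depth limited the cell line value of Ctsk (22 counts in all).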

Other observations

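Over the 6 samples, the genes with profiles most like those of 4 of the 10 genes were found by the root mean square difference of log2 CPM, after each gene was centred on its mean. For Ctsk they were Aldh1a1 (0.109), Rasl12 (0.137) and Wnt3a (0.179), and Aldh1a1 stood at 405 CPM in lung against 4.71 CPM in the cell line. Wnt3a had 0 counts in all 3 cell line samples, so its distance is set there by the prior count of 2 added before the log, and the low cell line levels of Ctsk and Rasl12 also lean on that prior. For Ctse they were Dis3 (0.0848), Gpc1 (0.108) and Pkm (0.123), with Pkm at 671 CPM in lung against 3528 CPM in the cell line. For Lgmn they were Dynlt1c (0.101), Myom3 (0.103) and Traf5 (0.111). For Cst3, with its high value in lung replicate 2, they were Trex1 (0.205), Psmb10 (0.213) and Cmbl (0.234), and Psmb10 stood at 92.8, 214 and 76.5 CPM in lung replicates 1, 2 and 3 against 12.5, 19.5 and 17.75 CPM in cell line replicates 1, 2 and 3. The samples of a group share a source, so such likeness describes these 6 libraries only.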
